A study of Mus musculus with 6 samples.

Results

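The transforming growth factor beta (TGF-beta) genes described here are 3 ligand genes (Tgfb1, Tgfb2, Tgfb3), 3 receptor genes (Tgfbr1, Tgfbr2, Tgfbr3), 2 intracellular SMAD genes (Smad3, Smad7) and the target gene Tgfbi. They were chosen by symbol, and all 9 had 1 entry each among the 23238 distinct symbols of the deposited count files. The study measured RNA by 3' messenger RNA sequencing in 6 libraries of BMOL, a mouse liver progenitor cell line, with liver as the stated tissue. Of these, 3 were labelled vector control and 3 were labelled as carrying TXNIP-expressing constructs. TXNIP, thioredoxin-interacting protein, is an alpha-arrestin that binds thioredoxin. The promoter and sequence of the construct, and whether a group was 1 clone or several cultures, are not stated in the labels, so the p-values measure only the spread between these libraries. Both groups share the cell line label, and no further allele or agent is named.

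TGF-beta ligands are secreted in a latent form and, once released, bind the type II receptor TGFBR2, which recruits and phosphorylates the type I receptor TGFBR1. The active receptor phosphorylates SMAD2 and SMAD3, which enter the nucleus with SMAD4 and regulate transcription, and SMAD7 is induced as a feedback inhibitor of the receptor. TGFBR3, or betaglycan, is a coreceptor that presents ligand, TGF-beta 2 above all. In the liver the pathway is known for restraining epithelial growth and for driving fibrosis.

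The libraries held between 8725624 and 15119775 counts. Txnip rose from 19.6 ± 16.2 to 268 ± 44.9 CPM, the reads per 1000000 of the TMM-scaled library (SD, n = 3; edgeR adjusted p = 2.8e-05), a log2 fold change of 3.82 that became 4.71 when control replicate 1 was left out. The libraries labelled TXNIP overexpression went against the cell type label. All 11 tested leukocyte and macrophage markers, of 14 listed, were higher in them, and the summed level of the list was 72.3 to 92.4 CPM in the control libraries and 6621 to 7265 CPM in the other group. The most abundant of them were Lyz2 (1611 ± 503 CPM in the TXNIP-labelled libraries), Cd14 (1425 ± 58.7 CPM) and Csf1r (1026 ± 141 CPM). Of 9 tested ductular epithelial markers, of 12 listed, 8 were lower and 1, Spp1, was higher. Without Spp1 that list summed to 2562 to 3681 CPM in the control libraries and to 0.0907 to 1.55 CPM in the other group, where 6 of 12 markers had no read, with Cdh1 and Krt8 the most abundant after Spp1 (1131 ± 389 and 625 ± 109 CPM in the control libraries). Krt18, a keratin of simple epithelia, had 1 read over those 3 libraries, and Ptprc, the pan-leukocyte gene, had 6 reads over the control libraries and 4915 over the others. Stellate cell and fibroblast markers summed to between 0.660 and 3.36 CPM in every library, led in mean over all libraries by Acta2, Col1a1 and Dcn. Of these markers, 7 of 10 listed were at 0 in the control libraries and 4 of 10 in the other group. Endothelial markers summed to 38.0 to 44.1 CPM in the control libraries and 15.2 to 24.0 CPM in the other group, with 5 and 4 of 8 at 0. By mean over all libraries they were led by Flt1, Egfl7 and Kdr. Flt1 and Egfl7 were lower in the TXNIP-labelled libraries, while Kdr had 0 control reads and 41 in the other group. Hepatocyte markers split by gene: of 4 tested, 2 were lower, 1 was higher and 1 did not pass. Hnf4a, a hepatocyte transcription factor gene, went from 1276 reads to 0. Ttr went from 100 reads to 13, of which 12 lay in TXNIP-labelled replicate 3, and its groups overlapped (edgeR adjusted p = 0.036). Afp, the alpha-fetoprotein gene, rose from 11.1 ± 4.46 to 102 ± 8.39 CPM. Afp makes up most of their summed level in the TXNIP-labelled libraries, which was 101 to 112 CPM against 41.2 to 67.2 CPM in the control libraries, with 3 and 1 of 8 at 0. The marker levels and the labels separate the same libraries, so the construct and a difference in cell type cannot be told apart in any result below. In RNA from whole cultures, fewer cells of a type and less RNA per cell also cannot be told apart. The groups are called by their labels, as control and TXNIP-labelled libraries.

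Of the 9 genes, 6 had entries in the RefSeq promoter table (GRCm38.p6, the assembly of mm10). The 250 bases before the start site are shown for the ligand gene and the SMAD gene whose reads were lost from the TXNIP-labelled libraries, and for the pair of signalling receptor genes whose levels overlapped between groups. They are written 5' to 3' along the gene. Capitals mark the SMAD box CAGAC and the GC box GGGCGG on either strand.
Tgfb2: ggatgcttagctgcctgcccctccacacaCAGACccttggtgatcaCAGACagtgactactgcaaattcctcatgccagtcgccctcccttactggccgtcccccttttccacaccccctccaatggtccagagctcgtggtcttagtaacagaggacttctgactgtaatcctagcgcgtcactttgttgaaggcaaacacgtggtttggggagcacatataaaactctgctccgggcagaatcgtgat
Smad3: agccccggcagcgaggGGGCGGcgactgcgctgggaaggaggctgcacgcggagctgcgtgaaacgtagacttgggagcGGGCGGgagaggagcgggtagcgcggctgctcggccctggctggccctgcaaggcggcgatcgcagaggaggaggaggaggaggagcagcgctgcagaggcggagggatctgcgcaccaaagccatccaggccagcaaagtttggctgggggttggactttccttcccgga
Tgfbr1: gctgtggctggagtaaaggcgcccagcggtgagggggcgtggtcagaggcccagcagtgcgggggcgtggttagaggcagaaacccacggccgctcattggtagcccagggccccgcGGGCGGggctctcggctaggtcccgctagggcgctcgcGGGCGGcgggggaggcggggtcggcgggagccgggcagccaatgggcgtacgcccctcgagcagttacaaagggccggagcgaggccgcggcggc
Tgfbr2: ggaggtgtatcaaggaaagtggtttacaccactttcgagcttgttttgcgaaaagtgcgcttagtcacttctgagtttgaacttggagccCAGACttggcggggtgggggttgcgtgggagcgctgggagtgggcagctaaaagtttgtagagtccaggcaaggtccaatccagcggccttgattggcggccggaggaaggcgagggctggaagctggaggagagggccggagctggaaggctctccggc

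These windows lie at chr1:186705990-186706239 (minus strand) for Tgfb2, chr9:63757995-63758244 (minus strand) for Smad3, chr4:47352972-47353221 (plus strand) for the upstream start site of Tgfbr1 and chr9:116175364-116175613 (minus strand) for Tgfbr2. The Tgfb2 window precedes a start site at 186705989 and lies inside the gene, whose 5' end is at 186709697. It is thus not the stretch upstream of the whole gene. The Tgfb2 window held 2 copies of CAGAC, and that of Tgfbr2 held 1. The windows of Smad3 and of the upstream start site of Tgfbr1 held none and carried 2 copies of GGGCGG each. The table lists a second start site of Tgfbr1, whose window at chr4:47385966-47386215 (not shown) held 1 CAGAC and 1 GAGGAA and no GGGCGG, and the counts do not tell which start site was used. CAGAC was present in 42.2% of the 32817 mouse promoter windows of the same length, and GGGCGG in 32.7%. The Tgfbr1 and Smad3 windows were rich in CpG dinucleotides, with 29 and 22 against a median of 6 over all windows, while those of Tgfb2 and Tgfbr2 held 8 and 12. The AP-1 motif TGANTCA, the cyclic AMP response element TGACGTCA and the TEAD motif GGAATG, also searched on both strands, were in none of the 4 windows. They occur in 6.75%, 1.55% and 12.6% of all windows. The ETS core GAGGAA (23.2% of all windows) was found once each in Tgfb2 and Tgfbr2, and no motif overlapped another in the 4 windows. These matches are a description of letters and not of binding.

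The 2 ligand genes that the control libraries expressed, Tgfb2 and Tgfb3, were nearly or wholly absent from the TXNIP-labelled libraries. Tgfb2 encodes the isoform that depends most on betaglycan, and its gene lies on chromosome 1 from 186622787 to 186709697 (GRCm38.p6, as for all genes here). It had 39.2, 43.9 and 48.1 CPM in the control libraries and no read in any TXNIP-labelled library. The 3 control values lay close together, and the groups did not overlap. Set against 3 reads over the group as the floor, Tgfb2 was at least 434-fold lower (edgeR quasi-likelihood test, Benjamini-Hochberg adjusted p = 7.9e-09).

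Tgfb3, on chromosome 12 from 86056743 to 86079041, encodes an isoform known for its part in palate and lung development. It had 4.07, 9.22 and 7.77 CPM in the control libraries, and in the TXNIP-labelled libraries it had 2 reads in replicate 2 and none in replicates 1 and 3. Control replicate 1 was the lowest of its group and still lay above every TXNIP-labelled library. From the pooled counts of 289 and 2 reads, Tgfb3 was 111-fold lower (exact 95% interval 30.4 to 919), and it passed the test (edgeR adjusted p = 1.6e-05). Its log2 fold change was -6.50 ± 0.80 (SE) and became -9.36 without TXNIP-labelled replicate 2, which holds both reads. It became -5.92 without TXNIP-labelled replicate 3. The 3' end of Tgfb3 lies inside Ttll5, a tubulin glutamylase gene on the other strand, and the use of strand in counting is not given. Ttll5 had 184, 308 and 339 reads in the control libraries and 269, 335 and 375 in the TXNIP-labelled libraries, not scaled for depth. Whether reads of Ttll5 bear on the count of Tgfb3 was not tested.

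Tgfb1, the isoform best known from blood cells and platelets, on chromosome 7 from 25687002 to 25705077, was hardly counted in any library. It had 4, 0 and 1 reads in the control libraries (0.440, 0 and 0.0653 CPM) and 5, 9 and 8 reads in the TXNIP-labelled libraries (0.594, 0.870 and 0.726 CPM). All 3 TXNIP-labelled values lay above all 3 controls, by a margin of 1 read between the nearest libraries. Tgfb1 did not pass the filter on low counts. When every gene with a read was tested, its log2 fold change was 2.19 and it did not pass (edgeR adjusted p = 0.20). A difference in Tgfb1 was thus not detectable at this depth. Counts from the 3' end depend on the annotated end of a transcript, and whether that bears on these low counts was not tested.

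The ligand reads were therefore of different make-up in the groups. Tgfb1 contributed 1.01%, 0% and 0.117% of the Tgfb1, Tgfb2 and Tgfb3 reads in the control libraries, which had 397, 766 and 857 such reads. Its share was 100%, 81.8% and 100% in the TXNIP-labelled libraries, which had only 5, 11 and 8 reads, so that their exact 95% binomial intervals (Clopper-Pearson) began at 47.8%, 48.2% and 63.1%. The mean share was 0.375% ± 0.551 for the control and 93.9% ± 10.5 for the TXNIP-labelled libraries (SD, n = 3; two-sided exact permutation test, p = 0.1, the smallest that 3 against 3 libraries allow). Summed over libraries, Tgfb2 and Tgfb3 went from 1726 and 289 reads to 0 and 2, and Tgfb1 from 5 to 22. Intervals and floors cover counting error only, since no molecular identifiers are described.

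**Figure D1:**
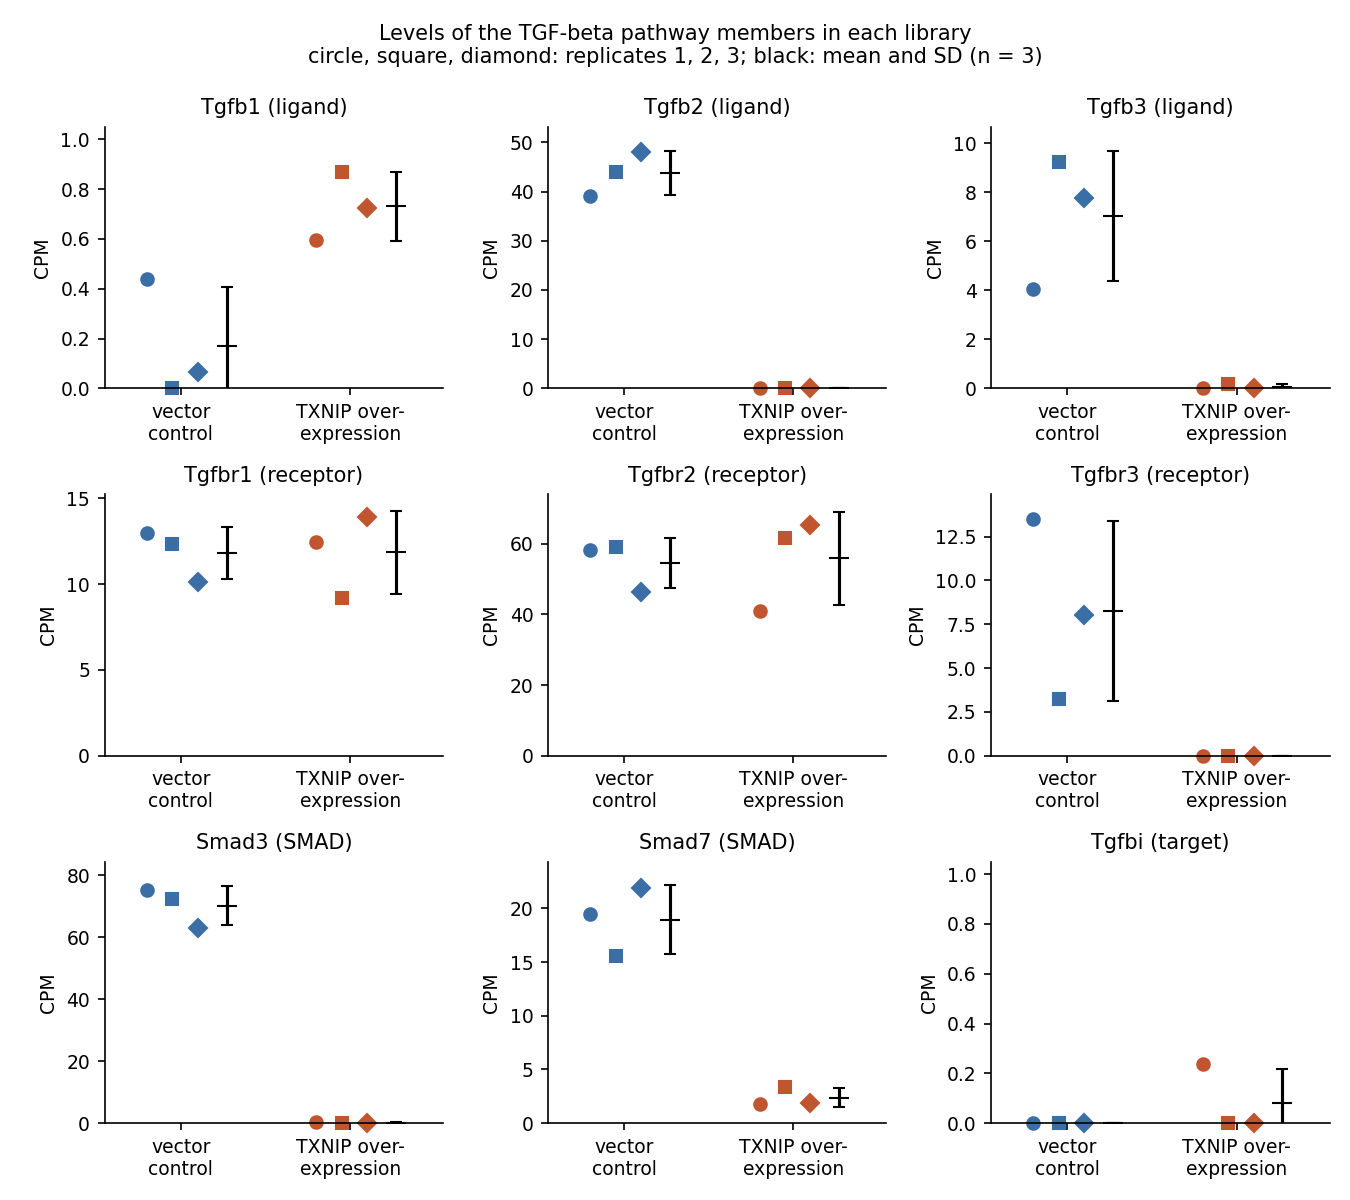
CPM of the 9 genes in each library (y axes, linear, each with its own range), with the control libraries on the left and the TXNIP-labelled libraries on the right; circles, squares and diamonds are replicates 1, 2 and 3, and black bars are the mean and SD (n = 3), drawn no lower than 0. Tgfb2, Tgfb3, Tgfbr3 and Smad3 sat at or near 0 in all 3 TXNIP-labelled libraries, Tgfbr1 and Tgfbr2 overlapped between groups, and Tgfb1 and Tgfbi stayed below 1 CPM throughout.

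Among the receptors, the coreceptor gene was lost while the levels of the signalling pair overlapped between groups. Tgfbr3 (betaglycan), on chromosome 5 from 107106567 to 107289629, had 13.5, 3.26 and 8.03 CPM in the control libraries and no read in the TXNIP-labelled libraries. The control values differed widely, yet the lowest of them, replicate 2, still had 47 reads. Tgfbr3 was at least 82.1-fold lower (edgeR adjusted p = 5.6e-05).

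Tgfbr2, on chromosome 9 from 116087695 to 116175363, encodes the receptor that binds ligand first. It had 58.1, 58.9 and 46.4 CPM in the control libraries and 40.9, 61.5 and 65.3 CPM in the TXNIP-labelled libraries. The TXNIP-labelled libraries held both the lowest and the highest value, in replicates 1 and 3. The means were 54.5 ± 7.01 and 55.9 ± 13.1 CPM (SD, n = 3), and the log2 fold change of 0.04 ± 0.19 (SE) did not pass (edgeR adjusted p = 0.86), with a 95% interval from -0.37 to 0.45.

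Tgfbr1, the kinase that phosphorylates SMAD2 and SMAD3, lies on chromosome 4 from 47353222 to 47414926. It had 13.0, 12.3 and 10.1 CPM in the control libraries and 12.5, 9.19 and 13.9 CPM in the TXNIP-labelled libraries. Again the TXNIP-labelled values enclosed those of the control libraries. Its log2 fold change was 0.01 ± 0.25 (SE; 95% interval -0.54 to 0.55) and did not pass (edgeR adjusted p = 0.98). Neither interval excludes a modest change in either direction, and the sign of both estimates turned with the scaling (Tgfbr1 -0.06 and Tgfbr2 -0.03 with library size alone).

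The receptor-activated and the inhibitory SMAD were both lower, to different extents. Smad3, on chromosome 9 from 63646766 to 63757994, encodes a SMAD that binds DNA directly in the TGF-beta response. It had 75.1, 72.4 and 63.0 CPM in the control libraries and 0.475, 0 and 0.0907 CPM in the TXNIP-labelled libraries, which is 2692 reads against 5. Of those 5 reads, 4 were in TXNIP-labelled replicate 1. Its mean fell from 70.2 ± 6.38 to 0.189 ± 0.252 CPM (SD, n = 3), with a log2 fold change of -8.61 ± 0.40 (SE; edgeR adjusted p = 2.3e-09). Without TXNIP-labelled replicate 1 the log2 fold change was -10.25, and without TXNIP-labelled replicate 2 it was -8.01.

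Smad7, on chromosome 18 from 75367365 to 75395935, encodes the inhibitor that competes for the receptor and recruits ubiquitin ligases to it. It had 19.5, 15.5 and 21.9 CPM in the control libraries and 1.78, 3.39 and 1.90 CPM in the TXNIP-labelled libraries. Unlike Smad3 it kept reads in every library, with 15, 35 and 21 in the TXNIP-labelled ones. Its mean fell 8.04-fold, from 19.0 ± 3.21 to 2.36 ± 0.892 CPM (SD, n = 3; log2 fold change -2.99 ± 0.32 SE; edgeR adjusted p = 4.4e-06).

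Tgfbi, an extracellular matrix protein gene named for its induction by TGF-beta, lies on chromosome 13 from 56609586 to 56639359. It had no read in the control libraries and 2 reads in the TXNIP-labelled libraries, both in replicate 1. A count of 0 allows up to 3 reads, which is between 0.196 and 0.330 CPM in the control libraries. No difference was detectable at this depth.

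In all, 7 of the 9 genes passed the filter on low counts, and 5 of the 7 passed the edgeR test, each lower in the TXNIP-labelled libraries. Over all 12088 tested genes 64.5% passed in either direction, 30.6% as higher and 33.9% as lower, so passing the test was common in these libraries. The groups did not overlap in the same 5 genes, against 70.4% of all tested genes. No read at all remained in the TXNIP-labelled libraries for 2 of the 7, against 5.37% of all tested genes. The median log2 fold change of the 7 was -6.50, or -6.36 with the genes without reads at their bound, beside -0.04 over all tested genes. The 7 had to be above the filter in at least 1 group, and Tgfb1 and Tgfbi are not in these counts.

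The wider TGF-beta superfamily was described from a list of 82 other genes, of which 58 were tested and 10 had no read in any library. In the same libraries in which the leukocyte markers were high, 35 of the 58 were lower, 10 were higher and 13 did not pass. The share called, 77.6%, stands beside 64.5% of all genes, and the share called lower, 60.3%, beside 33.9%. Their median log2 fold change was -1.06. By role, the share called was 75% for latency and activation, 75% for other receptors and 73.3% for other targets. It was 66.7% for adapters, corepressors, ligases and phosphatases, 83.3% for other SMADs and 100% for the related ligands. In the same order of roles, the share called lower was 62.5%, 75% being called in all, then 25%, 53.3%, 50%, 83.3% and 100%. Over all tested genes it was 33.9%. With so few genes per role, these shares do not set a role apart.

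Genes that hold or release latent ligand split by gene. Of 8 tested, 5 were lower, 1 was higher and 2 did not pass. Nrros, which tethers latent TGF-beta 1 to the surface of macrophages and microglia, had 0.110, 0.139 and 0.849 CPM in the control libraries and 172, 190 and 178 CPM in the TXNIP-labelled libraries. Its mean rose 492-fold (log2 fold change 8.75 ± 0.34 SE; edgeR adjusted p = 7.5e-10), and without control replicate 3 the log2 fold change was 10.33. Ltbp3, which binds latent TGF-beta in the matrix, fell from 181 ± 31.7 to 37.7 ± 4.12 CPM (SD, n = 3; edgeR adjusted p = 1.0e-07). Thbs1, encoding the activator thrombospondin 1, had 21.3 ± 3.50 CPM in the control libraries and lost every read, at least 211-fold lower (edgeR adjusted p = 1.2e-07). The genes that did not pass were Furin, the protease that cleaves the precursor, at 115 ± 29.2 and 92.2 ± 3.68 CPM, and Ltbp4. Furin passed without control replicate 2 (edgeR adjusted p = 0.030) and Ltbp4 passed in limma-voom (adjusted p = 0.045).

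The related ligand genes were lost together with Tgfb2 and Tgfb3. All 8 tested activin, bone morphogenetic protein (BMP) and GDF ligand or processing genes were lower, and 6 of them had no read in the TXNIP-labelled libraries. Over all tested genes, 33.9% were called lower and 5.37% had no read in those libraries. These 6 genes could pass the filter on low counts only through the control libraries, so a higher call was not open to them. Bmp4 fell from 36.8 ± 8.73 CPM to 0 reads and was at least 365-fold lower (edgeR adjusted p = 3.9e-08). Bmp1, a protease that processes procollagens and frees BMP ligands, went from 726 reads to 1, which lay in TXNIP-labelled replicate 2. Gdf15, a stress-induced hormone gene, kept a low level and fell from 127 ± 36.2 to 4.40 ± 1.67 CPM (edgeR adjusted p = 1.1e-07). Of 8 secreted inhibitors only Fstl3, an activin antagonist, was tested, and it fell from 60.2 ± 19.4 to 0.606 ± 0.473 CPM (edgeR adjusted p = 1.3e-07). Its log2 fold change of -6.55 became -7.16 without TXNIP-labelled replicate 2.

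Among the 8 other receptor genes tested, 4 were higher, 2 were lower and 2 did not pass. Bmpr1a, a type I BMP receptor gene, rose from 29.0 ± 2.86 to 63.5 ± 8.46 CPM (edgeR adjusted p = 5.3e-05). Acvr2b, an activin receptor gene, rose from 1.33 ± 0.0956 to 8.66 ± 1.98 CPM (edgeR adjusted p = 5.5e-05). Acvrl1 (ALK1), known from endothelium, had no control read and 4.38 ± 1.21 CPM in the TXNIP-labelled libraries, at least 56.7-fold higher (edgeR adjusted p = 3.2e-05). The other gene that rose was Amhr2, from 0.205 ± 0.251 to 4.96 ± 2.47 CPM. Leaving out control replicate 2 changed its log2 fold change from 4.40 to 5.77. Acvr1 and Eng did not pass, and Acvr2a, which did, no longer passed with a minimum fold of 1.5 (adjusted p = 0.21).

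**Figure D2:**
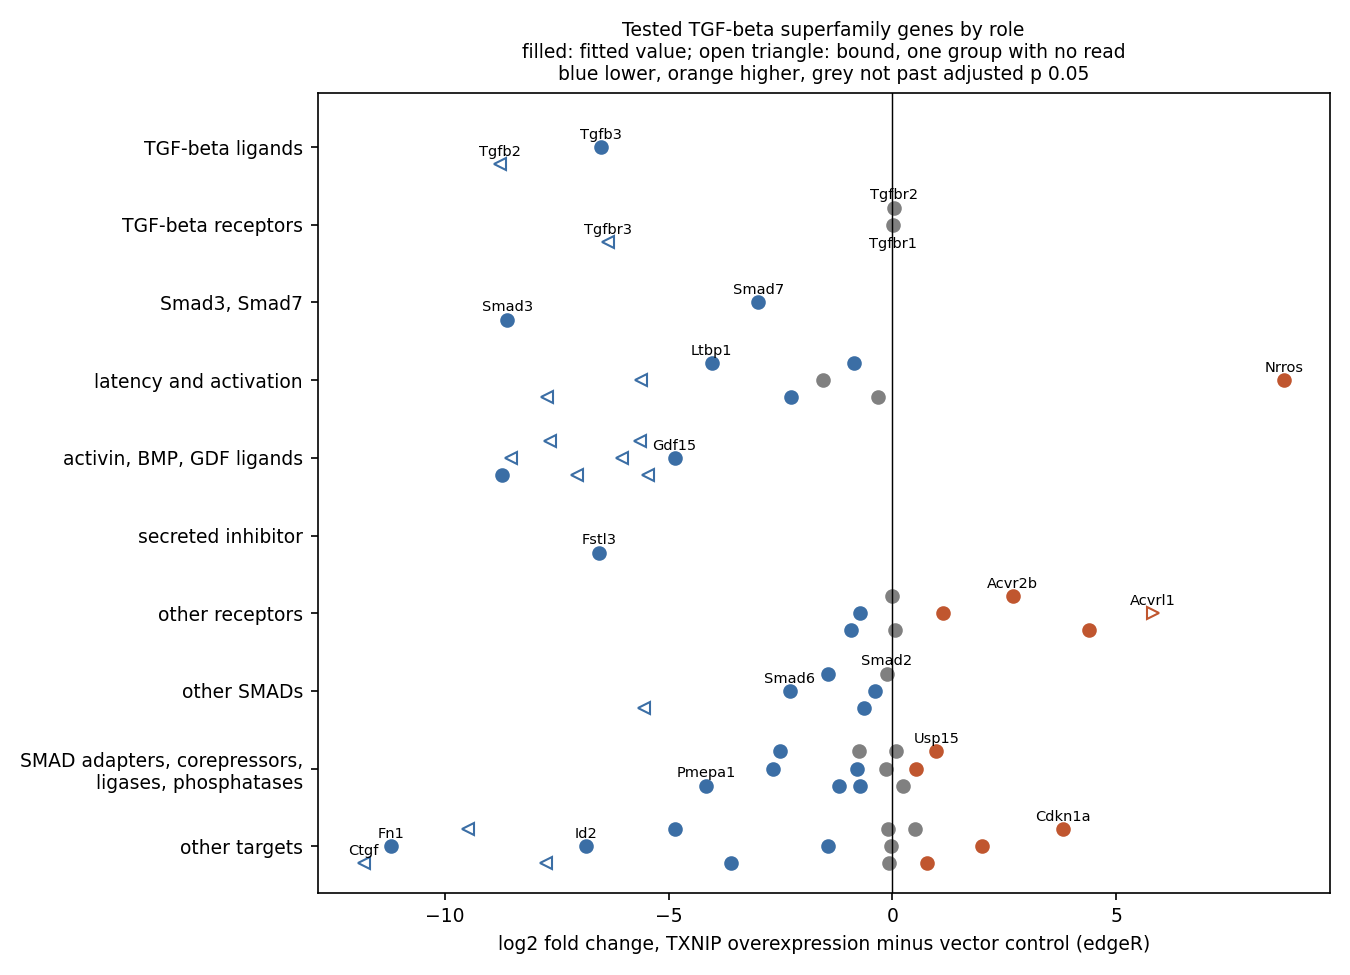
Log2 fold change (x axis, TXNIP-labelled minus control) of the 7 tested genes described above and of the 58 other tested superfamily genes, in rows by role; filled points are fitted values, open triangles are bounds for genes with no read in 1 group, and blue, orange and grey mark lower, higher and not past an adjusted p of 0.05. All 8 activin, BMP and GDF genes lie to the left of 0, Tgfbr1 and Tgfbr2 lie at 0, and Nrros lies farthest to the right.

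Of the 6 other SMAD genes, 5 were lower and 1, Smad2, did not pass. Smad2, the partner of Smad3 downstream of the same receptor, had 45.7, 41.2 and 40.2 CPM in the control libraries and 34.0, 38.0 and 44.3 CPM in the TXNIP-labelled libraries (edgeR adjusted p = 0.50). Its groups overlapped, where those of Smad3 did not. Smad4, the common partner, fell from 79.1 ± 3.30 to 60.7 ± 3.43 CPM (edgeR adjusted p = 0.020). That call did not hold without control replicate 2 (adjusted p = 0.056), TXNIP-labelled replicate 2 (0.062) or TXNIP-labelled replicate 3 (0.083), and with a minimum fold of 1.5 (0.96). Smad6, the inhibitory SMAD of the BMP branch, fell 4.93-fold, from 24.5 ± 4.54 to 4.96 ± 0.875 CPM (edgeR adjusted p = 5.2e-06). Smad1, a receptor-activated SMAD of the BMP branch, had 43.7, 39.3 and 47.6 CPM in the control libraries and 12.1, 20.9 and 15.1 CPM in the TXNIP-labelled libraries, 2.71-fold lower with no overlap (edgeR adjusted p = 7.3e-05). Smad5, of the same branch, fell from 49.5 ± 6.34 to 32.2 ± 4.14 CPM (edgeR adjusted p = 0.0059), a call lost with a minimum fold of 1.5 (adjusted p = 0.33). Smad9, the remaining receptor-activated SMAD of that branch, had no read in the TXNIP-labelled libraries and was at least 46.5-fold lower (edgeR adjusted p = 4.1e-05).

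All 12 adapters, corepressors, ligases and phosphatases were tested, and 6 were lower, 2 were higher and 4 did not pass. Pmepa1, a TGF-beta-induced inhibitor of SMAD activation, had 266, 312 and 324 CPM in the control libraries and 20.2, 11.4 and 18.8 CPM in the TXNIP-labelled libraries, 17.9-fold lower (edgeR adjusted p = 4.4e-09). Nedd4l, a ubiquitin ligase gene, fell from 78.2 ± 13.3 to 13.7 ± 1.40 CPM, and the corepressor gene Tgif2 from 21.3 ± 4.81 to 3.35 ± 0.199 CPM. Skil (SnoN), a corepressor whose gene is itself a target, fell less, from 32.4 ± 3.57 to 18.8 ± 2.24 CPM (edgeR adjusted p = 0.0023), and did not pass with a minimum fold of 1.5 (adjusted p = 0.10). The genes that rose were the deubiquitinase gene Usp15, from 43.2 ± 5.38 to 85.5 ± 15.4 CPM, and the phosphatase gene Ppm1a, from 88.0 ± 15.7 to 127 ± 2.38 CPM. With a minimum fold of 1.5 the calls were lost for Ppm1a (adjusted p = 0.58) and for the ubiquitin ligase gene Smurf2 (0.13), at 41.2 ± 1.69 and 24.9 ± 0.859 CPM. The corepressor gene Tgif1, at 84.9 ± 11.6 and 100.04 ± 27.5 CPM, did not pass (edgeR adjusted p = 0.30), but passed as higher without TXNIP-labelled replicate 1 (0.011) and without replicate 1 of both groups (9.2e-05).

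Target genes moved in both directions. Of 15 tested, from 23 listed, 8 were lower, 3 were higher and 4 did not pass. Of the 8 that were lower, 3 had no read in the TXNIP-labelled libraries, beside 5.37% of all tested genes. They were Ctgf, Cyr61 and Cdkn2b, with 14796, 3084 and 830 reads over the control libraries, through which alone they could pass the filter. The inhibitor of differentiation genes, which BMP signalling induces, were lower, with Id3 falling from 223 ± 36.6 to 7.56 ± 2.32 CPM (edgeR adjusted p = 2.2e-09) and Id2 from 1411 ± 232 to 12.1 ± 4.72 CPM (edgeR adjusted p = 2.7e-09). Fn1, encoding the matrix protein fibronectin, went from 4246 reads to 1, in TXNIP-labelled replicate 1. Cdkn1a (p21), a cell cycle inhibitor gene, moved the other way, from 44.9, 42.6 and 44.2 CPM to 666, 625 and 573 CPM, 14.1-fold higher (edgeR adjusted p = 1.7e-10). Among those that did not pass were Tagln, Klf10 and Angptl4, of which Angptl4 passed without replicate 1 of both groups (edgeR adjusted p = 0.045). The others that passed as higher were Junb, from 157 ± 61.1 to 267 ± 14.1 CPM, and Acta2, at 0.497 ± 0.351 and 2.06 ± 1.13 CPM (edgeR adjusted p = 0.027), whose groups overlapped. The call for Junb was lost with a minimum fold of 1.5 (adjusted p = 0.15). Acta2 no longer passed when control replicate 1 (adjusted p = 0.076), control replicate 3 (0.11) TXNIP-labelled replicate 1 (0.088) or replicate 1 of both groups (0.092) was left out, nor with the replicate block (0.093), no filter (0.054) or a minimum fold of 1.5 (0.056). Its log2 fold change of 1.99 became 2.77 when control replicate 2 was left out.

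**Figure D3:**
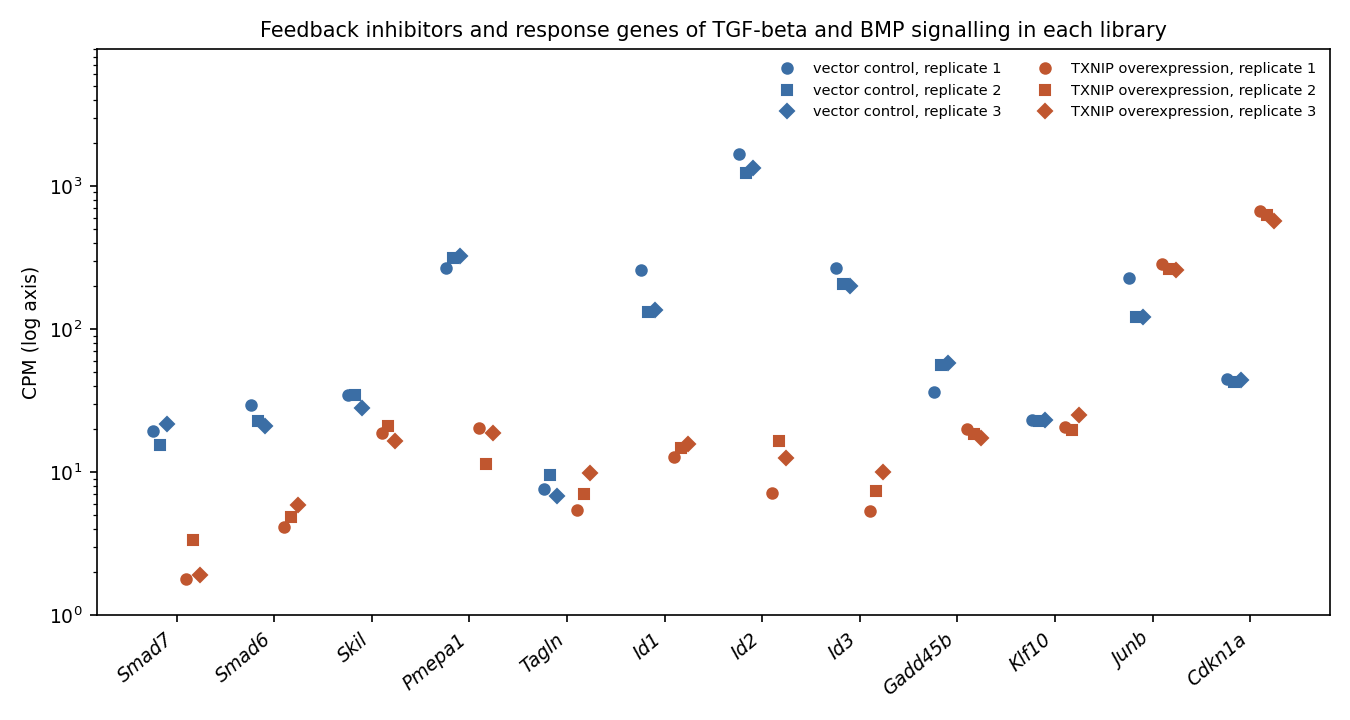
CPM (y axis, log scale) of 12 feedback inhibitor and response genes in each library, with control libraries in blue and TXNIP-labelled libraries in orange and 1 symbol per replicate. Pmepa1, Id1, Id2, Id3, Smad6 and Smad7 are lower in all 3 TXNIP-labelled libraries, Cdkn1a is higher in all 3, and Tagln and Klf10 overlap between groups.

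The genes whose patterns over the 6 libraries were nearest to those of the TGF-beta genes were found among 8904 tested genes with a mean of at least 10 CPM, by the distance between centred log2 CPM values. Nearest to Tgfb2 were Sh3bp4 (distance 0.111) and Bex2 (0.152), both of which also had no read in the TXNIP-labelled libraries. Nearest to Smad3 were Npcd (0.459) and Nptxr (0.461), which had 1998 and 1988 reads in the control libraries and 3 each in the other group. Whether these 2 symbols, with nearly equal counts, share the same reads was not tested. Tgfbr2 was nearest to Ndufb2 (0.222) and Cpne3 (0.237), and Tgfbr1 to Gtf3c3 (0.198) and Tmem127 (0.215), none of which separated the groups by more than 0.12 on the log2 scale. Smad7 was nearest to Tbc1d9 (0.346) and Tbc1d12 (0.456), and Tgfb3 to Ier5l (0.465) and Anxa3 (1.003). The pool leaves out genes at the level of Tgfb3 and Tgfbr3 over the 6 libraries. Within it, the nearest to Tgfbr3 were Atp1b1 at 1.14 and Ppl at 1.25. With 6 libraries in 2 groups, such a distance mostly reflects the size of the difference between groups and the reads of 1 or 2 libraries.

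**Figure D4:**
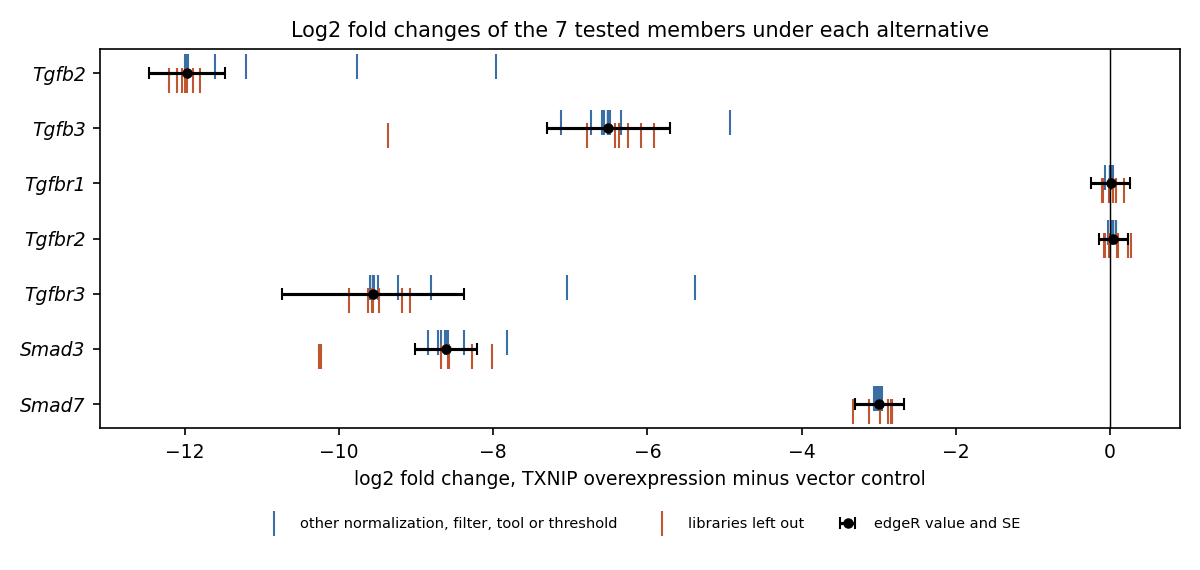
Log2 fold change (x axis, TXNIP-labelled minus control) of the 7 tested genes under each alternative, with blue ticks for other normalizations, filters, tools and thresholds, orange ticks for left-out libraries, and black points for the edgeR value with its SE. Tgfb2, Tgfb3, Tgfbr3, Smad3 and Smad7 stay to the left of 0 under all of them, and Tgfbr1 and Tgfbr2 fall on both sides of 0.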

How the data were processed

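RNA was extracted with Trizol and sequenced from its 3' ends after Lexogen QuantSeq library preparation, per the labels' protocols. Bowtie2, bedtools and the mouse build mm10 are named in the submitters' processing notes, with versions, annotation and strand use not given in the sources used here. Raw counts were deposited per gene symbol by the authors, 1 file per library, and were used as they stand. Entries of 35 repeated symbols were kept apart, none of them a gene named here.

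Genes were filtered with filterByExpr (12088 left), scaled by TMM and compared by the quasi-likelihood test of edgeR (4.0.16, R 4.3.3), with robust dispersions, two-sided, adjusted by Benjamini-Hochberg over all tested genes at 0.05. CPM use the TMM-scaled library sizes. Genes without reads in a group were given a floor of 3 reads per group. Each library's counts limit what can be seen: 3 reads equal 0.196 to 0.357 CPM. The script was tested on simulated data.

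The named genes are all 9 members, the 3 genes of each role with the smallest adjusted p, Skil, Pmepa1, Smad2, Smad4, the 3 most abundant genes of each marker list, Ptprc, Krt18, Txnip, and the 2 nearest patterns per member. Others were named after their values were seen, and 1 gene that the rule takes is not reported here. The members and lists were chosen with earlier results of these data known. As alternatives, the scaling was changed (RLE, upper quartile, library size alone), as was the filter (none, or 5 CPM). Further ones were DESeq2 1.42.0, limma-voom and limma-trend (limma 3.58.1), dispersions without robust estimation, a replicate block, each library left out, a threshold of 0.01, a minimum fold of 1.5, removal of the ribosomal entry Rn45s, thinned counts and, added after seeing the data, both replicate 1 libraries left out. Plots were drawn with matplotlib 3.10.9.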

Additional observations from a re-analysis of the deposited data

How the results depend on the processing

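The 5 calls among the TGF-beta genes kept their direction and passed under every alternative in which the gene was tested. The count was 3, all lower, with a filter of 5 CPM in 3 libraries, because Tgfb3 and Tgfbr3 did not pass that filter. Fitted log2 fold changes of genes near 0 depend on the tool and ranged from -12.20 to -7.97 for Tgfb2, -9.36 to -4.93 for Tgfb3, -9.87 to -5.38 for Tgfbr3 and -10.25 to -7.82 for Smad3, against -3.34 to -2.83 for Smad7. The calls among the other superfamily genes ranged from 37 to 49. Over all genes the number called higher was 2382 with a minimum fold of 1.5, against 3699.

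Tgfbr1 and Tgfbr2 passed in no alternative, and their signs turned. Tgfbr1 had log2 fold changes of -0.0037 with RLE factors, -0.063 with library size alone, -0.00026 with no filter, -0.0053 with the 5 CPM filter, -0.0034 in DESeq2 and -0.0086 in limma-trend. Tgfbr2 had -0.028 with library size alone and 0.27 without replicate 1 of both groups (edgeR adjusted p = 0.088). With each library left out in turn they ranged from -0.11 to 0.18 for Tgfbr1 and from -0.074 to 0.23 for Tgfbr2. The Tgfb1 share of ligand reads differed between groups by 90.5 to 99.6 percentage points with a library left out, and by 90.4 against Tgfb3 alone.

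The replicate numbers are shared between groups, but the deviations of same-numbered libraries correlated at only 0.11, 0.05 and 0.05 over 8904 genes. Control replicate 2 correlated best with TXNIP-labelled replicate 3 (0.06). Replicate 1 of each group correlated negatively with replicates 2 and 3 of the other group (-0.083 to -0.066). Without replicate 1 of both groups, 8491 of 12349 tested genes passed. Under a replicate block, 7767 genes passed against 7796 and the same number of TGF-beta genes, 5, passed, with Tgfbr1 at -0.0046. The block ended 1 call among the other superfamily genes, that of Acta2 (edgeR adjusted p = 0.093). Low counts limit what can be said of Tgfb1 and Tgfbi, which had at most 9 reads in a library.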
